A study of Mus musculus with 19 samples.

Results

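The genes described here encode subunits of the 4 complexes of the mitochondrial respiratory chain and of ATP synthase, together with factors that assemble them. They were chosen by symbol alone, as the genes whose names start with Nduf, Uqcr, Cox5, Cox6, Cox7, Cox8 or Atp5, or are Sdha, Sdhb, Sdhc, Sdhd or Cyc1. The rule found 85 of the 20998 genes on the array. By role, 32 were subunits of complex I, 4 of complex II, 9 of complex III, 9 of complex IV and 14 of ATP synthase (complex V), 10 were assembly or associated factors, and 7 were isoforms known mainly from muscle, testis or hypoxic cells. Expression had been measured on 19 Affymetrix MoGene 2.0 ST arrays of macrophages and of Ly6C+ inflammatory monocytes that were sorted from mouse bone marrow. There were 5 arrays of macrophages from marrow with metastasis, 5 of macrophages from healthy marrow, 4 of monocytes from marrow with metastasis and 5 of monocytes from healthy marrow. To give metastases, 100000 MetBo2 cells had been put into the heart of female mice aged 4 weeks. MetBo2 is a clone, picked for homing to bone, of the mouse breast cancer line Met-1, so every metastasis array concerns 1 tumour line. The strain, the age and any injection of the healthy mice, the sort markers other than Ly6C, and whether arrays came from separate or pooled mice are not stated in the sources used here, nor is any batch. The p-values therefore measure the spread between these arrays, which may be technical, and the part of age, injection or batch was not tested.

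The respiratory chain passes electrons from NADH (complex I) and succinate (complex II) through ubiquinone to complex III, then through cytochrome c to complex IV, which reduces oxygen. Complexes I, III and IV pump protons across the inner mitochondrial membrane, and ATP synthase lets them flow back to make ATP. Macrophages are known to lean on this pathway to differing degrees, with oxidative metabolism linked to alternative activation and glycolysis to inflammatory activation. Most subunits are encoded in the nucleus, and nuclear respiratory factor 1 (NRF1), the ETS-family factor GABP and YY1 are known to bind many of their promoters.

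Promoters were searched for 1 short motif of each of these factors. RefSeq (GRCm38.p6) listed a promoter for 69 of the 85 genes, and the 250 bases before the transcription start were read on both strands. The NRF1 motif (GCGCA, any base, GCGC) was found in 12 promoters (17.4%, against 4.23% of 27025 genes with a listed promoter and 6.07% of the 16171 of these that are on the array). The ETS motif CCGGAAG was found in 14 (20.3%, against 7.83% and 10.5%), and the YY1 motif AANATGGCG in 2 (2.9%, against 1.29% and 1.71%). At least 1 motif lay in 24 promoters (34.8%, against 12.2% of all and 16.7% of those on the array). The median GC content was 57.6% in these promoters, against 52.4% in all and 56.4% in those on the array. A match is a string of letters in this window and does not show binding. The promoters shown are 1 with each motif among the genes whose expression was lower in macrophages in both kinds of marrow (Atp5g2, Ndufs3 and Ndufa7). Those of the complex I genes Ndufb7 and Ndufv3 follow. Expression passed as higher in macrophages for Ndufv3 in both kinds of marrow and for Ndufb7 in metastatic marrow only. All sequences are given on the strand of the gene, with the motif in capitals.
Atp5g2, subunit c of ATP synthase, chr15:102671048-102671297, minus strand, NRF1 motif beginning 42 bases before the start: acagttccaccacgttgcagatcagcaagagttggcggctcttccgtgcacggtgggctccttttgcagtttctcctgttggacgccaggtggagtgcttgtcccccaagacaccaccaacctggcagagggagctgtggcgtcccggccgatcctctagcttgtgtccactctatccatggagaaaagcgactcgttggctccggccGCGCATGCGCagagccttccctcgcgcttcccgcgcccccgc
Ndufs3, a core subunit of complex I, chr2:90904722-90904971, minus strand, ETS motif beginning 27 bases before the start: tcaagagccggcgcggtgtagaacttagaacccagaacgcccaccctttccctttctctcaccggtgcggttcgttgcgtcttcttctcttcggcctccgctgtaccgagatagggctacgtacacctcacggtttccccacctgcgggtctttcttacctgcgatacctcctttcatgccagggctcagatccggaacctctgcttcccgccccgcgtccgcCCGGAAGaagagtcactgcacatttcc
Ndufa7, an accessory subunit of complex I, chr17:33824395-33824644, plus strand, 1 of 2 listed promoters, YY1 motif beginning 18 bases before the start: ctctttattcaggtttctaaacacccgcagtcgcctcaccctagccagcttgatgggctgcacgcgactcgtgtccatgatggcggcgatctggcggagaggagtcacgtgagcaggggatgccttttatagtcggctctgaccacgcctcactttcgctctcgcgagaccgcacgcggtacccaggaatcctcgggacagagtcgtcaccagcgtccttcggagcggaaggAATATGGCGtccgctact
Ndufb7, an accessory subunit of complex I, chr8:83566508-83566757, plus strand, ETS motif beginning 20 bases before the start: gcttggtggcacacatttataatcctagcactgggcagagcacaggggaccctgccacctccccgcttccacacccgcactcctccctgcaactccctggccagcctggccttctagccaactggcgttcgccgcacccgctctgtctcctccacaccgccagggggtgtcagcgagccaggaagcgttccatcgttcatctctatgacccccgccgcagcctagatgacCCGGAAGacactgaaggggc
Ndufv3, an accessory subunit of the NADH module, chr17:31519865-31520114, plus strand, none of the 3 motifs: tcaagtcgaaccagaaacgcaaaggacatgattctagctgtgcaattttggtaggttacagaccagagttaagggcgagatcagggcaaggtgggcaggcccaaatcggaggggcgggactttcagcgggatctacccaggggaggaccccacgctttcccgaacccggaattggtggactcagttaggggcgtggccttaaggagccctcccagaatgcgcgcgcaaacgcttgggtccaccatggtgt
At least 1 motif was present in 10 of the 34 listed promoters of genes lower in both kinds of marrow (29.4%) in 13 of the 33 of genes neither lower in both nor higher in either (39.4%) and in 1 of the 2 of genes that were higher (Ndufb7 and not Ndufv3).

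The values deposited by the authors are log2 levels, in which a difference of 1 is a 2-fold change, and they ran from 1.38 to 12.6 with array medians between 4.45 and 4.55. Arrays have no read depth, so their number limits the precision. Macrophage arrays varied more than monocyte arrays: the median SD of the 85 genes was 0.150 in metastasis and 0.187 in healthy macrophages, and 0.0778 in metastasis and 0.0819 in healthy monocytes. Macrophages metastasis replicate 2 and macrophages healthy replicate 1 correlated least with their groups (mean r across genes 0.988 and 0.983). The cell-type labels were checked against marker genes. Of 10 macrophage markers, 4 were higher and 4 lower in macrophages than in monocytes of metastatic marrow, and 3 were higher and 3 lower in healthy marrow. Vcam1 stood 1.08 ± 0.18 higher in metastatic and 2.05 ± 0.17 higher in healthy marrow, and C1qb 1.19 ± 0.25 and 1.13 ± 0.23 higher (SE). Adgre1, which encodes F4/80, fell by 0.96 ± 0.16 in metastatic and by 0.63 ± 0.15 in healthy marrow, and Cd68 and Csf1r were lower too. Among 7 Ly6C-high monocyte markers, 4 were lower and 1 higher in macrophages of metastatic marrow (median -0.82). In healthy marrow 5 were lower and 1 higher (median -0.83). Genes of other blood cells were higher on the arrays labelled macrophages. Of 11 neutrophil markers, 7 rose and 3 fell in metastatic marrow and 6 rose and 4 fell in healthy marrow, and their summed level had medians of 14.4 in metastasis and healthy macrophages, against 12.9 and 12.8 in metastasis and healthy monocytes, with Ltf at 12.3 in macrophages of both kinds of marrow, against 6.88 and 7.40 in metastasis and healthy monocytes. Summed markers of B and plasma cells (8.80 to 11.1, against 7.45 to 7.92), of T and NK cells (9.43 to 10.0, against 7.17 to 7.83) and of erythroid cells (8.66 to 10.2, against 7.68 to 8.45) also did not overlap between the cell types. "Macrophages" below means these arrays, and in sorted bulk RNA fewer cells of a type and less RNA per cell cannot be told apart.

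Respiratory chain and ATP synthase genes were lower in macrophages than in Ly6C+ monocytes. In metastatic marrow 46 of the 85 genes fell, 3 rose (Ndufv3, Ndufb7 and Cox6a2) and 36 did not pass (limma, adjusted p below 0.05 over all 20998 genes). Of all genes, 26.5% passed in this comparison, 16.9% lower and 9.6% higher. Of the 11005 genes above the median brightness, which include 79 of the 85, 45.9% passed, 31.1% lower and 14.7% higher. The median log2 fold change was -0.30, against 0.01 over all genes and -0.11 over the brighter genes. In healthy marrow 56 fell, 1 rose (Ndufv3) and 28 did not pass, where 28% of all genes passed (18% lower and 10% higher) and 47.7% of the brighter genes (32.3% lower and 15.3% higher). There the median was -0.36, against -0.01 over all genes and -0.12 over the brighter genes, and 77 of the 85 values were negative. Of all genes 52.4% were negative, and of the brighter genes 62.0%. The 2 kinds of marrow share no arrays. They had 44 falls in common, which is 95.7% of the falls in metastatic marrow and 78.6% of those in healthy marrow. Shared falls were not counted over all genes, so whether this overlap is particular to these genes was not tested. Both comparisons also took each gene's spread from the same fit to all arrays, so their calls are not fully separate. Without overlap between the arrays of the groups, 49 genes were lower and 3 higher in metastatic marrow (15.2% and 9.03% of all genes), and 50 were lower and 0 higher in healthy marrow (13.7% and 7.19%). Among the 11005 brighter genes, 3085 were lower and 1495 higher without overlap in metastatic marrow. In healthy marrow 2766 of them were lower and 1309 higher. In the same comparisons the summed neutrophil, lymphocyte and erythroid markers above were higher in macrophages. Of 9 genes of dividing cells, 4 fell and 2 rose in metastatic marrow (median -0.38), and 6 fell in healthy marrow (median -0.72). Their part in the difference was not tested.

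**Figure D1:**
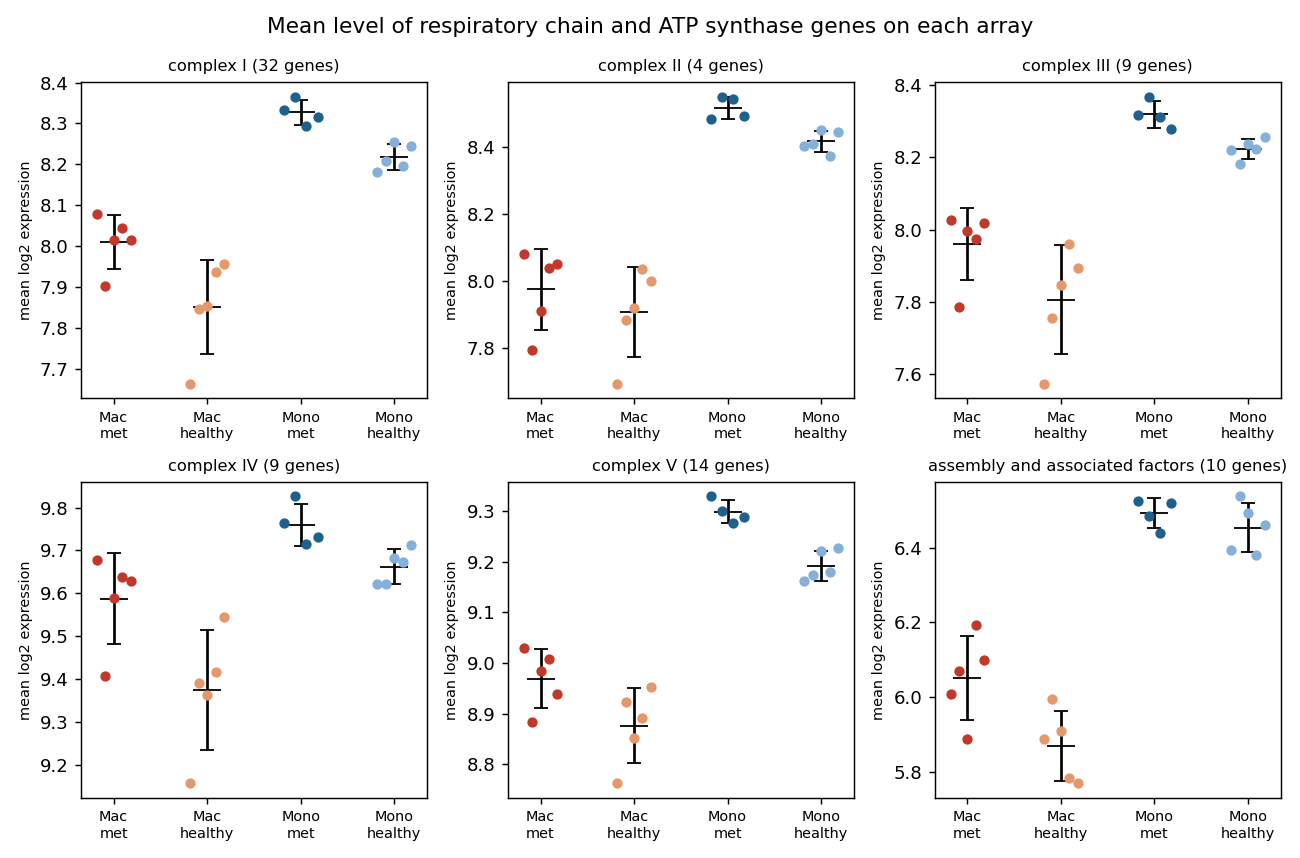
Mean log2 level of the genes of each class on each array (points), with the group mean and SD as bars, for macrophages (Mac) and monocytes (Mono) from metastatic (met) and healthy marrow. For complexes I, II, III and V and for the assembly factors all macrophage arrays lie below all monocyte arrays, and within macrophages the metastasis and healthy arrays overlap in every panel.

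The mean over all 85 genes gives the same order on single arrays. It ranged from 7.70 to 7.86 on metastasis macrophage arrays, against 7.49 to 7.72 on healthy ones, and from 8.07 to 8.12 on metastasis monocyte arrays, against 7.98 to 8.05 on healthy ones. Every macrophage array lay below every monocyte array. Of the 5 complexes, the means of complex IV came closest, with 9.41 to 9.68 in metastasis macrophages, against 9.71 to 9.83 in metastasis monocytes. The means of the 7 isoforms from other tissues overlapped, with 4.31 to 4.49 in metastasis macrophages, against 4.23 to 4.32 in metastasis monocytes.

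In complex I, the NADH dehydrogenase and the class with the most genes, the share of falls was below that of complexes II, III and V in both kinds of marrow. In metastatic marrow 17 of its 32 subunits fell, 2 rose and 13 did not pass, and in healthy marrow 22 fell, 1 rose and 9 did not pass. Its 7 nuclear core subunits, which carry the flavin, the iron-sulphur clusters and the ubiquinone site, had 6 falls in each kind of marrow and medians that were 1.46-fold lower in metastatic and 1.55-fold lower in healthy marrow. The 25 accessory subunits had 11 falls in metastatic and 16 in healthy marrow, with medians 1.21-fold and 1.27-fold lower. This split by textbook role was made after the values were seen.

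Ndufs8, an iron-sulphur core subunit, stood at 8.25, 8.15, 8.28, 8.29 and 8.10 in metastasis macrophages, against 8.78, 8.72, 8.60 and 8.92 in metastasis monocytes, and at 8.06, 7.87, 7.98, 8.06 and 8.03 in healthy macrophages, against 8.57, 8.65, 8.76, 8.52 and 8.64 in healthy monocytes. No macrophage array reached the lowest monocyte array. It fell by 0.54 ± 0.08 in metastatic (adjusted p = 3.02e-05) and by 0.63 ± 0.08 in healthy marrow (adjusted p = 1.73e-06), and the accessory subunits Ndufb5 (-0.56 ± 0.09 and -0.63 ± 0.08) and Ndufa10 (-0.58 ± 0.08 and -0.50 ± 0.08) fell by similar amounts. Ndufs3, whose promoter is shown above, fell by 0.65 ± 0.10 in each. Ndufa7, also shown there, fell by 0.46 ± 0.09 and by 0.28 ± 0.08, and its call in healthy marrow was lost after quantile normalization and when the least correlated array of each group was left out (adjusted p up to 0.158).

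Ndufv3 and Ndufb7 ran against the other complex I subunits. Ndufv3, an accessory subunit of the NADH module, stood at 7.80, 7.40, 7.77, 7.67 and 7.58 in metastasis macrophages, against 7.40, 7.27, 7.25 and 7.21 in metastasis monocytes. In healthy marrow it stood at 6.96, 7.43, 7.33, 7.59 and 7.73 in macrophages, against 6.92, 7.11, 7.09, 7.20 and 6.84 in monocytes. The groups touched in metastatic marrow without crossing and overlapped in healthy marrow through 1 low macrophage array. It rose by 0.36 ± 0.13 in metastatic (adjusted p = 0.0346) and 0.37 ± 0.12 in healthy marrow (adjusted p = 0.0198). Both calls were fragile: the call in metastatic marrow was lost in 7 alternatives, of which 6 left out 1 array (macrophages metastasis replicate 1, 3 or 4, or monocytes metastasis replicate 2, 3 or 4), with adjusted p up to 0.0982. The call in healthy marrow was lost in 5, of which 4 left out 1 array (macrophages healthy replicate 4 or 5, or monocytes healthy replicate 1 or 5), with adjusted p up to 0.069. Ndufb7 rose by 0.31 ± 0.10 in metastatic marrow (adjusted p = 0.0257), a call lost without macrophages metastasis replicate 3, 4 or 5 or monocytes metastasis replicate 3 or 4 and with equal array medians (adjusted p up to 0.0972). In healthy marrow it stood at 0.20 ± 0.10 (adjusted p = 0.144), and the difference between the kinds of marrow did not pass (0.11 ± 0.14, adjusted p = 0.911). X-linked Ndufa1 had small values, at 0.07 ± 0.08 in metastatic and 0.04 ± 0.08 in healthy marrow, with 95% intervals from -0.10 to 0.24 and from -0.12 to 0.19.

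**Figure D2:**
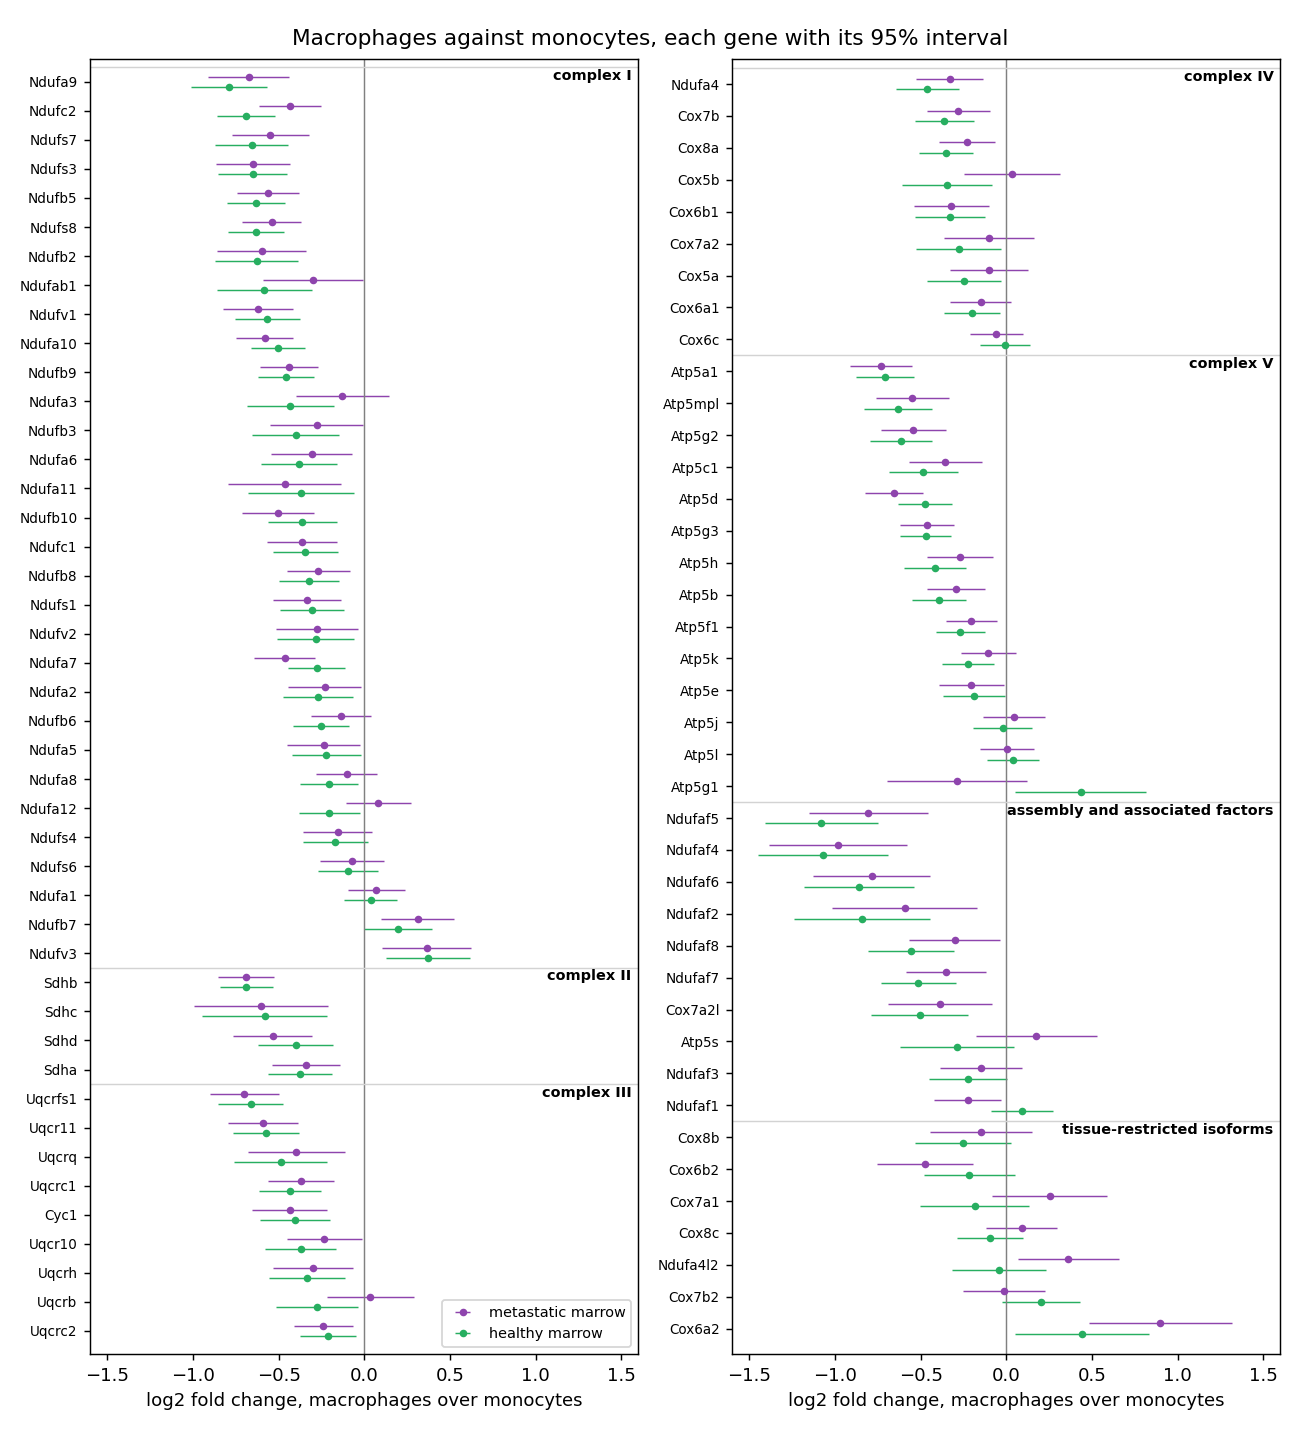
Log2 fold change of macrophages over monocytes for the genes of each class (points, 1 complex I gene not shown) with 95% intervals (lines), in metastatic and in healthy marrow, sorted by class and by the value in healthy marrow. Most points lie left of 0, the assembly factors Ndufaf5 and Ndufaf4 lie farthest left, and Ndufv3, Ndufb7 and Cox6a2 lie to the right in metastatic marrow.

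All 4 genes of complex II, succinate dehydrogenase, which also serves the TCA cycle, fell in each kind of marrow. Sdhb, the iron-sulphur subunit, stood at 7.76, 7.44, 7.57, 7.56 and 7.54 in metastasis macrophages, against 8.22, 8.27, 8.26 and 8.30 in metastasis monocytes. It stood at 7.55, 7.48, 7.40, 7.53 and 7.48 in healthy macrophages, against 8.12, 8.22, 8.25, 8.05 and 8.27 in healthy monocytes. The cell types lay well apart, and the fold change was -0.69 ± 0.08 in metastatic (adjusted p = 5.63e-07) and -0.69 ± 0.07 in healthy marrow (adjusted p = 2.08e-07), a level 1.62-fold and 1.61-fold lower. The flavoprotein gene Sdha fell by 0.34 ± 0.10 and by 0.37 ± 0.09, with overlap of the groups in metastatic marrow only through the highest macrophage array, at 8.58 against a lowest monocyte array of 8.57. The membrane anchor gene Sdhd fell by 0.54 ± 0.11 and by 0.40 ± 0.11. Sdhc, the other anchor, fell by 0.60 ± 0.19 (adjusted p = 0.0186) and by 0.58 ± 0.18 (adjusted p = 0.0152). Its macrophage arrays were spread widely, at 8.27, 7.32, 8.11, 8.55 and 8.46 in metastasis and 7.40, 8.16, 8.18, 8.06 and 8.29 in healthy marrow, and 1 array in each was far below the rest. Its call in metastatic marrow was lost without monocytes metastasis replicate 2 (adjusted p = 0.0522), and that in healthy marrow without the low macrophages healthy replicate 1 (adjusted p = 0.0535).

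Of the 9 genes of complex III, the cytochrome bc1 complex, 6 fell in metastatic and 8 in healthy marrow, and none rose. Uqcrfs1, the Rieske iron-sulphur protein, stood at 6.46, 6.39, 6.34, 6.52 and 6.39 in metastasis macrophages, against 7.02, 7.14, 7.31 and 7.00 in metastasis monocytes, a fold change of -0.70 ± 0.10 (adjusted p = 7.13e-06). In healthy marrow it stood at 6.35, 5.98, 6.46, 6.38 and 6.40 in macrophages, against 7.00, 7.01, 7.01, 6.85 and 7.04 in monocytes, a fold change of -0.66 ± 0.09 (adjusted p = 5.62e-06). The groups did not overlap in either marrow. The small subunit gene Uqcr11 fell by 0.59 ± 0.10 and by 0.57 ± 0.09, the core protein gene Uqcrc1 by 0.37 ± 0.09 and by 0.43 ± 0.09, and Cyc1, cytochrome c1, by 0.44 ± 0.11 and by 0.41 ± 0.10. Uqcrb did not pass in either (0.04 ± 0.12, adjusted p = 0.889, and -0.27 ± 0.12, adjusted p = 0.0836).

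In complex IV, cytochrome c oxidase, 4 of 9 genes fell in metastatic marrow (median -0.15) and 5 in healthy marrow (median -0.33). Ndufa4, a subunit once assigned to complex I, stood between 10.3 and 10.5 (median 10.4) in metastasis macrophages, against 10.6 to 10.8 in metastasis monocytes (-0.33 ± 0.09, adjusted p = 0.0105). It fell in healthy marrow too (-0.46 ± 0.09, adjusted p = 0.000303). Cox8a fell by 0.23 ± 0.08 and by 0.35 ± 0.08, Cox7b by 0.28 ± 0.09 and by 0.36 ± 0.08, and Cox6b1 by 0.32 ± 0.10 and by 0.33 ± 0.10. In metastatic marrow the calls of Cox7b and Cox6b1 were lost without macrophages metastasis replicate 2 (adjusted p = 0.0567 and 0.077), that of Cox7b also without monocytes metastasis replicate 1 (0.073), and that of Cox6b1 without monocytes metastasis replicate 2 or 3 (0.0808 and 0.0725). Both were also lost after quantile normalization (0.111 and 0.0773), as was that of Cox6b1 in healthy marrow (0.0528). The call of Cox8a in metastatic marrow was lost in 10 alternatives, of which 7 left out 1 array (macrophages metastasis replicate 2, 3 or 4, or any monocytes metastasis replicate), with adjusted p up to 0.135. Cox5b stood at 0.03 ± 0.14 in metastatic marrow (adjusted p = 0.912) and fell by 0.35 ± 0.13 in healthy marrow (adjusted p = 0.0467), a call lost in 13 alternatives, of which 9 left out 1 array (macrophages healthy replicate 1, 2, 3 or 4, or any monocytes healthy replicate), with adjusted p up to 0.129. Cox6c had small values, at -0.06 ± 0.07 in metastatic and -0.01 ± 0.07 in healthy marrow, with 95% intervals from -0.21 to 0.10 and from -0.15 to 0.14.

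Of the 14 genes of ATP synthase, 9 fell in metastatic and 10 in healthy marrow. Among the 5 of the F1 head and central stalk, which make ATP, 4 fell in each, and Atp5e did not pass. Atp5a1, the alpha subunit, stood at 9.96, 9.89, 10.0, 9.70 and 9.93 in metastasis macrophages, against 10.7, 10.6, 10.5 and 10.7 in metastasis monocytes. It stood at 9.75, 9.85, 9.63, 9.98 and 9.90 in healthy macrophages, against 10.5, 10.6, 10.5, 10.5 and 10.6 in healthy monocytes. Every macrophage array was below every monocyte array, with fold changes of -0.73 ± 0.09 (adjusted p = 9.15e-07) and -0.71 ± 0.08 (adjusted p = 5.07e-07), or 1.66-fold and 1.63-fold lower. Atp5d, the delta subunit of the central stalk, fell by 0.66 ± 0.08 and by 0.48 ± 0.08, and the catalytic beta subunit Atp5b by 0.29 ± 0.08 and by 0.39 ± 0.08.

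The 3 genes for subunit c, the membrane ring through which protons pass, encode the same mature protein, and 2 of them fell. Atp5g2 fell by 0.54 ± 0.09 in metastatic and by 0.62 ± 0.09 in healthy marrow, and Atp5g3 by 0.46 ± 0.08 and by 0.47 ± 0.07. Atp5g1 passed in neither, at -0.29 ± 0.20 (adjusted p = 0.335) and 0.43 ± 0.18 (adjusted p = 0.0887). Its values were low and scattered, from 3.27 to 4.29 in metastasis and 4.02 to 4.75 in healthy macrophages, against 4.01 to 4.52 in metastasis and 3.60 to 4.17 in healthy monocytes. Atp5j and Atp5l, of the peripheral stalk and the membrane part, did not pass: Atp5j stood at 0.05 in metastatic and -0.02 in healthy marrow, and Atp5l at 0.00 and 0.04.

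The largest falls of the 85 genes were in factors that build complex I. Of the 8 Ndufaf genes, 5 fell in metastatic and 6 in healthy marrow. Ndufaf5 stood at 4.79, 5.36, 4.88, 5.40 and 5.24 in metastasis macrophages, against 6.28, 6.00, 5.64 and 5.85 in metastasis monocytes, a fold change of -0.80 ± 0.17 (adjusted p = 0.000752). In healthy marrow it stood at 5.05, 4.24, 5.08, 4.62 and 4.47 in macrophages, against 5.62, 5.67, 5.93, 5.88 and 5.74 in monocytes, which is 2.11-fold lower (-1.08 ± 0.16, adjusted p = 1.26e-05). The groups were apart in both. Ndufaf4 was 1.98-fold and 2.10-fold lower (-0.98 ± 0.19 and -1.07 ± 0.18) and Ndufaf6 1.72-fold and 1.81-fold lower (-0.79 ± 0.16 and -0.86 ± 0.16). Ndufaf1 did not pass (-0.23 ± 0.09, adjusted p = 0.0813, and 0.09 ± 0.09, adjusted p = 0.506). Cox7a2l, which joins complexes III and IV into supercomplexes, stood at -0.39 ± 0.15 in metastatic marrow (adjusted p = 0.0541) and fell by 0.51 ± 0.14 in healthy marrow (adjusted p = 0.00671).

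The 7 isoforms known from other tissues included 1 that fell. None passed in healthy marrow, and in metastatic marrow Cox6a2 rose and Cox6b2 fell. Cox6a2, the heart and skeletal muscle form of subunit 6a, stood at 5.78, 6.56, 5.60, 6.24 and 6.37 in metastasis macrophages, against 5.49, 4.99, 5.30 and 5.06 in metastasis monocytes. All macrophage arrays were above all monocyte arrays there, 1.86-fold on average (0.90 ± 0.20, adjusted p = 0.00144). In healthy marrow the groups overlapped (5.66, 5.91, 6.10, 5.54 and 5.03 in macrophages, against 5.37, 4.84, 5.28, 5.06 and 5.47 in monocytes), at 0.44 ± 0.19 (adjusted p = 0.0908), and the gene passed without macrophages healthy replicate 5 (adjusted p = 0.0144). The difference between the kinds of marrow did not pass (0.46 ± 0.28, adjusted p = 0.728). The testis form Cox6b2 fell by 0.47 ± 0.14 in metastatic marrow (adjusted p = 0.0107) and stood at -0.22 ± 0.13 in healthy marrow (adjusted p = 0.246). Its call was lost when the least correlated array of each group was left out (adjusted p = 0.0511). Ndufa4l2, a relative of Ndufa4 that hypoxia induces, stood at 0.36 ± 0.14 in metastatic marrow (adjusted p = 0.062). It passed with array weights (adjusted p = 0.0241) and without macrophages metastasis replicate 4 or monocytes metastasis replicate 2 (0.0261 and 0.0296). Cox8b, Cox7a1 and Cox8c had values between -0.15 and 0.25 in metastatic and between -0.25 and -0.09 in healthy marrow. Cox7b2 stayed at or below 2.87 on all arrays, the highest value of 4 Y-linked genes on these arrays of female mice, so its values carry no order.

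**Figure D3:**
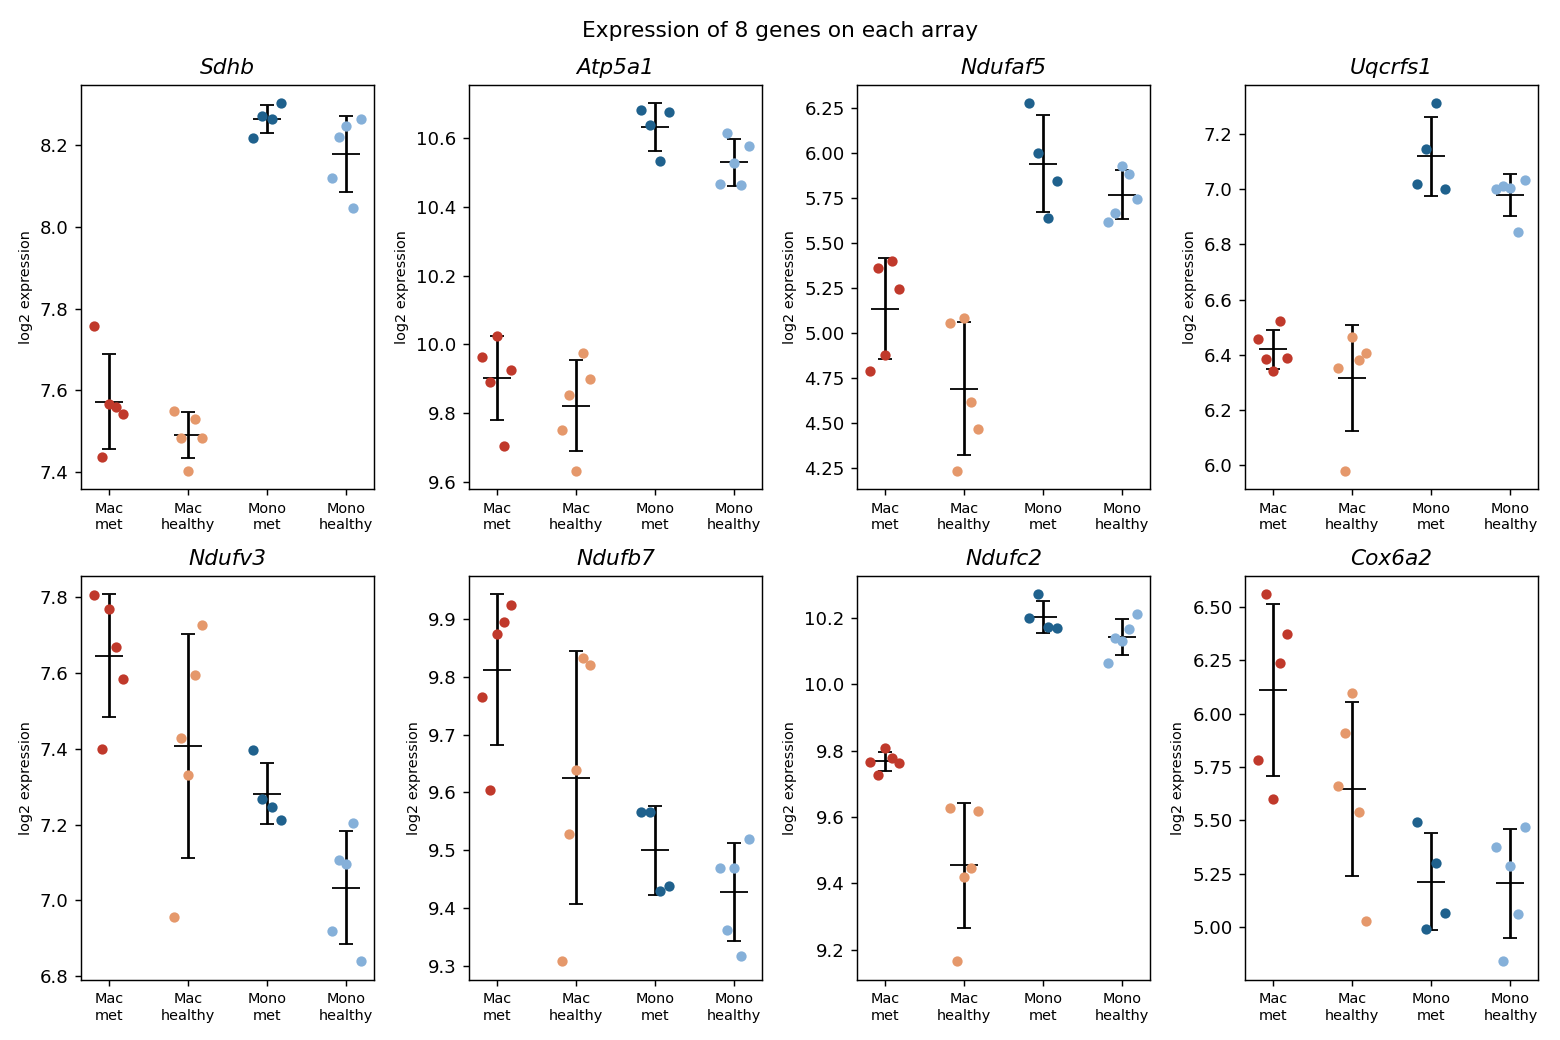
Log2 expression of 8 genes on each array (points) with the group mean and SD (bars), for macrophages (Mac) and monocytes (Mono) from metastatic (met) and healthy marrow. Sdhb, Atp5a1, Ndufaf5, Uqcrfs1 and Ndufc2 are lower in macrophages on every array, and Ndufv3, Ndufb7 and Cox6a2 are higher on average.

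In limma's test, metastasis moved no respiratory chain or ATP synthase gene past the threshold in either cell type. In macrophages 0 of the 85 genes passed, where 1.23% of all genes did. At an unadjusted p below 0.05, 30 were higher (7.22% of all genes and 10.3% of the brighter genes were) and 2 lower (6.38% of all genes). The values were small and mostly positive: 76 of 85 were above 0, with a median log2 fold change of 0.16, against 0.00 over all genes. Macrophages healthy replicate 1 had the lowest mean over the 85 genes (7.49, against 7.67 to 7.72 in the other healthy macrophages), and without it the median was 0.11 and 71 values were above 0. Among genes above the median brightness, 73 of the 79 in this group and 52.7% of the 11005 in all were positive. The medians were 0.16 for complex I, 0.07 for complex II, 0.14 for complex III, 0.23 for complex IV and 0.15 for ATP synthase. All 32 complex I genes and all 9 of complex III were above 0. Markers of dividing cells moved the same way in this comparison, with 3 of 9 higher (Mki67, Kif11 and Ube2c), all 9 positive and a median of 0.40. Of 11 neutrophil markers 1 rose (Prtn3, median 0.29 over the list), of 6 T and NK markers 1 rose (Cd8a, median 0.44), of 7 Ly6C-high monocyte markers 1 rose (Vcan, by 1.47), and of 10 macrophage markers 1 rose (Fcgr1, median -0.19). Of 9 erythroid markers 1 fell (Car1), and of 7 B and plasma cell markers 2 fell (Ebf1, and Jchain by 2.08 ± 0.28). The summed markers of dividing cells ran from 12.3 to 12.6 in metastasis macrophages, against 11.8 to 12.3 in healthy ones. The summed B and plasma cell markers ran from 8.80 to 10.7, against 10.6 to 11.1, the erythroid markers from 8.66 to 9.55, against 9.11 to 10.2, and the neutrophil markers from 14.4 to 14.6, against 14.2 to 14.4. The T and NK markers ran from 9.57 to 10.0, against 9.43 to 9.79, and the Ly6C-high monocyte markers from 13.4 to 13.6, against 13.3 to 13.5. Epithelial tumour markers were low, and 0 of 5 passed, with 4 of 5 values positive and a median of 0.12. Their sum ran from 6.17 to 6.49 in metastasis macrophages, against 6.07 to 6.23 in healthy ones. Epcam stood at 3.46 and Krt19 at 3.39 in metastasis macrophages, against 3.47 and 3.36 in healthy ones. The part of these cells in the shift was not tested.

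Ndufc2, an accessory subunit of complex I, came closest. It stood at 9.77, 9.73, 9.81, 9.78 and 9.76 in metastasis macrophages, against 9.63, 9.16, 9.42, 9.45 and 9.62 in healthy ones. The metastasis arrays were tightly grouped above all healthy arrays, and the difference was 0.31 ± 0.08 (adjusted p = 0.0589). It passed with an intensity trend (adjusted p = 0.0157), with dim genes left out (0.0319), and without macrophages healthy replicate 1 (0.0386) or 5 (0.0255). Without macrophages healthy replicate 5 Cox5b passed as well (adjusted p = 0.0319), and without macrophages metastasis replicate 2 Ndufa3 (0.0316) and Uqcr10 (0.0331) passed, so the count of 0 became 1 or 2. In all, 4 genes had metastasis arrays wholly above healthy ones (Atp5g3, Ndufa12, Ndufc2 and Ndufs8, where 0.976% of all genes did) and 0 wholly below (0.952%). Among the 11005 brighter genes, 159 lay wholly above and 125 wholly below. Ndufa12 stood at 7.03, 6.76, 6.78, 6.81 and 6.84 in metastasis macrophages, against 6.32, 6.64, 6.42, 6.71 and 6.63 in healthy ones (0.30 ± 0.09, adjusted p = 0.0908).

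Positive values that did not pass included those of Ndufaf5 (0.44 ± 0.16, adjusted p = 0.188), Ndufaf8 (0.38 ± 0.12, 0.138), Uqcrb (0.33 ± 0.12, 0.185), Atp5h (0.25 ± 0.09, 0.183) and Cox8a (0.22 ± 0.08, 0.172). These are not the largest of their classes throughout, since values reached 0.37 in complex I and 0.35 in complex IV. Among the isoforms of other tissues, Cox7a1 stood at 0.47 ± 0.15 (adjusted p = 0.146) and Cox6a2 at 0.46 ± 0.19 (0.269). Complex II had small values, with Sdhb at 0.08 ± 0.07, Sdha at 0.05 ± 0.09, Sdhc at 0.12 ± 0.18 and Sdhd at 0.02 ± 0.11. The 95% intervals of the 85 genes reached from -0.77 (Atp5g1) to 0.86 (Cox6a2), with a median half-width of 0.20.

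In monocytes 0 of the 85 genes passed, where 0.514% of all genes did. At an unadjusted p below 0.05, 6 were higher (7.06%, against 3.78% of all genes and 6.21% of the brighter genes) and 0 lower (3.8% of all genes). The share higher was thus near that of the brighter genes. Again most values were small and positive, 73 of 85, with a median of 0.10, against -0.01 over all genes. Of all genes 46.7% were positive, and of the brighter genes 53.2%. The class medians lay between 0.09 and 0.12 for complexes I to V and the assembly factors, and the 7 isoforms of other tissues had a median of 0.01. There were 11 genes whose metastasis arrays lay wholly above the healthy ones and 0 wholly below, where 2.96% and 2.45% of all genes did so. Among the 11005 brighter genes, 569 lay wholly above and 364 wholly below. The 11 genes were Ndufa7, Ndufb10, Ndufc1, Ndufs3, Ndufv1 and Ndufv3 of complex I, Uqcr11, Cox7a2, and Atp5d, Atp5g3 and Atp5mpl of ATP synthase. Ndufa7 had the smallest p: it stood at 7.46, 7.46, 7.62 and 7.56 in metastasis monocytes, against 7.13, 7.17, 7.32, 7.32 and 7.33 in healthy ones (0.27 ± 0.09, adjusted p = 0.245). Cox6b1 stood at 0.23 ± 0.10 (0.599) and Atp5g3 at 0.18 ± 0.08 (0.55). Of 9 genes of dividing cells 0 passed here, with a median of 0.05. Of 10 macrophage markers 1 rose (values up to 1.46), and of 7 Ly6C-high monocyte markers 1 rose (up to 1.33). No marker of the other lists passed. Summed B and plasma cell markers ran from 7.45 to 7.64 in metastasis monocytes, against 7.66 to 7.92 in healthy ones. Summed T and NK markers ran from 7.17 to 7.65, against 7.66 to 7.83, and the other sums overlapped. The part of these cells in the shift was not tested.

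**Figure D4:**
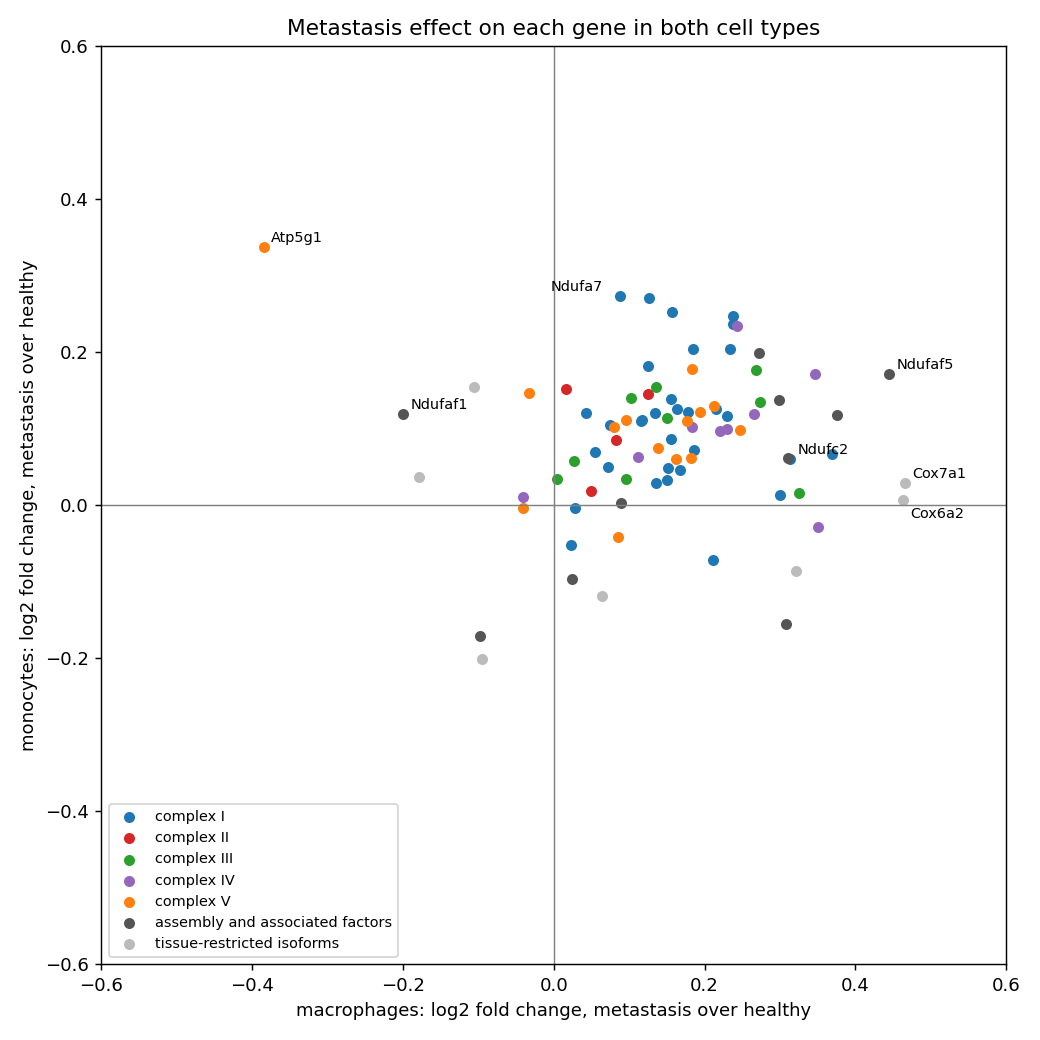
Log2 fold change of metastasis over healthy marrow for each of the 85 genes, in macrophages (horizontal axis) and in monocytes (vertical axis), coloured by class. Most points (67) lie in the upper right quadrant within 0.5 of 0 on each axis, and Atp5g1 and Ndufaf1 lie at upper left.

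The effects of metastasis in the cell types, which share no arrays, were positive in both for 67 genes, positive in macrophages alone for 9, positive in monocytes alone for 6 and negative in both for 3. These joint signs were not counted over all genes. The difference between the effects was tested as an interaction. It passed for 0 of the 85 genes, where 0.0619% of all genes passed, and at an unadjusted p below 0.05 it was higher for 3 (4.02% of all genes) and lower for 2 (3.85%). The median was 0.07, and 60 of 85 values were positive, against a median of 0.02 and 49 positive without macrophages healthy replicate 1. Over all genes the median was 0.01 with 52.7% positive, and over the brighter genes 0.00 with 50.5% positive. Atp5g1 had the smallest p, at -0.72 ± 0.27 (adjusted p = 0.487). It stood at 3.89, 4.08, 4.29, 4.28 and 3.27 in metastasis macrophages, against 4.23, 4.75, 4.02, 4.02 and 4.72 in healthy ones, and at 4.52, 4.01, 4.38 and 4.08 in metastasis monocytes, against 3.86, 3.60, 4.17, 3.79 and 4.15 in healthy ones. The groups overlapped in both cell types. Ndufaf1 followed at -0.32 ± 0.13 (adjusted p = 0.533), Ndufa12 at 0.29 ± 0.13 (0.585), Cox5b at 0.38 ± 0.19 (0.643), Ndufa4l2 at 0.41 ± 0.19 (0.634) and Uqcrb at 0.31 ± 0.17 (0.693). The median half-width of the 95% intervals was 0.29.

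Genes that act beside the chain were counted from 8 further lists, with 103 genes measured. Between the cell types 47 fell and 4 rose in metastatic marrow, which is 45.6% lower and 3.88% higher, against 16.9% and 9.6% of all genes and 31.1% and 14.7% of the brighter genes. In healthy marrow 47 fell and 3 rose (45.6% and 2.91%, against 18% and 10% of all and 32.3% and 15.3% of the brighter genes). Of 10 subunits and electron carriers outside the naming rule, 4 fell and 1 rose in each kind of marrow. Cycs, cytochrome c, fell by 0.66 ± 0.10 in metastatic and by 0.87 ± 0.09 in healthy marrow, and the uncoupling protein gene Ucp2 fell by 0.54 ± 0.08 and by 0.35 ± 0.07. Gpd2, the mitochondrial glycerol phosphate dehydrogenase that feeds electrons to ubiquinone, rose by 1.19 ± 0.08 in both (adjusted p = 1.66e-10 and 5.35e-11). Of 3 subunits encoded by mitochondrial DNA on the array, mt-Nd3 fell by 0.38 ± 0.10 and by 0.45 ± 0.09, and mt-Co2 and mt-Nd6 did not pass.

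Of 19 genes of the TCA cycle and pyruvate entry, 12 fell and 1 rose in each kind of marrow. Idh2, which makes NADPH in mitochondria, fell by 1.64 ± 0.13 in metastatic and by 1.66 ± 0.12 in healthy marrow, fumarase (Fh1) by 1.05 ± 0.14 and by 1.09 ± 0.13, and Dlat, of the pyruvate dehydrogenase complex, by 0.76 ± 0.09 and by 0.67 ± 0.09. The gene that rose was Mpc2, a subunit of the mitochondrial pyruvate carrier (0.29 in metastatic, adjusted p = 0.0413, and 0.32 in healthy marrow, adjusted p = 0.015), which was named after its value was seen. Its call was lost in 9 alternatives in metastatic marrow (adjusted p up to 0.153; by 1 array, without macrophages metastasis replicate 1, 3 or 5 or monocytes metastasis replicate 2, 3 or 4) and without macrophages healthy replicate 5 in healthy marrow (adjusted p = 0.0503). Of 8 carriers of nucleotides and phosphate, 3 fell in metastatic and 5 in healthy marrow, led by the ADP/ATP carriers Slc25a4 (-1.35 ± 0.10 and -1.33 ± 0.10) and Slc25a5 (-0.88 ± 0.09 and -1.06 ± 0.09).

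Among 30 assembly factors of complexes II to V, 9 fell and 1 rose in metastatic marrow and 10 fell in healthy marrow. The share lower was 30% in metastatic marrow, against 16.9% of all genes and 31.1% of the brighter genes. In healthy marrow it was 33.3%, against 18% and 32.3%, so both shares were near those of the brighter genes. The gene that rose, named after its value was seen, was the copper chaperone gene Cox17 (0.34 ± 0.10, adjusted p = 0.0106, and 0.0634 without monocytes metastasis replicate 3). Uqcc2, of complex III assembly, fell by 1.21 ± 0.09 and by 1.13 ± 0.09, Sdhaf4, of complex II assembly, by 1.06 ± 0.16 and by 1.06 ± 0.15, and Cox10, which makes heme for complex IV, by 0.66 ± 0.13 and by 0.59 ± 0.12. Of 7 complex I assembly factors outside the naming rule, 4 fell in each, among them Ecsit (-0.74 ± 0.14 and -0.60 ± 0.13) and Nubpl (-0.48 ± 0.16 and -0.63 ± 0.15). The call of Nubpl in metastatic marrow was lost in 8 alternatives, of which 5 left out 1 array (macrophages metastasis replicate 2, 3 or 5, or monocytes metastasis replicate 3 or 4), with adjusted p up to 0.199. Of 15 regulators of mitochondrial gene expression, 8 fell in each, and the mitochondrial mRNA-binding pair Lrpprc (-1.22 ± 0.14 and -1.04 ± 0.13) and Slirp (-0.67 ± 0.10 and -0.84 ± 0.10) were among them. Of 11 genes of ubiquinone synthesis, 6 fell and 1 rose in metastatic marrow, and 3 fell and 1 rose in healthy marrow. Coq7 fell by 0.59 ± 0.09 and by 0.78 ± 0.09, and Coq4 rose by 0.58 ± 0.14 and 0.67 ± 0.14.

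Metastasis changed 1 of the 103 genes of these lists in macrophages and 0 in monocytes, a share in macrophages of 0.971%, near the 1.23% of all genes (0.514% in monocytes). Coq7, a hydroxylase of ubiquinone synthesis, rose by 0.38 ± 0.09 in metastasis macrophages (adjusted p = 0.0319). That call was lost in 12 alternatives, of which 7 left out 1 array (macrophages metastasis replicate 1, 2, 3 or 5, or macrophages healthy replicate 1, 2 or 3), with adjusted p up to 0.199. The ADP/ATP carrier Slc25a5 stood at 0.29 ± 0.09 (adjusted p = 0.107), and the promoter-binding factors Yy1 and Gabpa stood at -0.14 ± 0.08 (adjusted p = 0.438) and 0.03 ± 0.07 (adjusted p = 0.896). In metastasis monocytes Slc25a5 stood at 0.12 ± 0.09 (adjusted p = 0.897), and Yy1 and Gabpa at -0.10 ± 0.08 and -0.06 ± 0.08.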

How the data were processed

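Macrophages and Ly6C+ monocytes from metastatic and healthy marrow were compared on 19 arrays. The authors deposited 1 log2 value per gene symbol and array, made with oligo, an R package for such arrays, per the submitters' processing notes; no source used here gives its version, background correction or normalization. Of the 85 symbols, 83 are current RefSeq symbols and 2 (Atp5f1 and Atp5s) are synonyms. Values were used as deposited, with no filter. Group means were fitted to all 19 arrays and 20998 genes with limma 3.58.1 in R 4.3.3 (lmFit, eBayes). The 5 contrasts set metastasis against healthy marrow within macrophages and within monocytes, set macrophages against monocytes within metastatic and within healthy marrow, and took the difference of the metastasis effects, which equals that of the cell-type effects. Benjamini-Hochberg adjusted p-values were taken over all 20998 genes, with a threshold of 0.05. Errors beside fold changes are SE, and summed marker levels are log2 of the summed linear values. The method was tested on simulated data for metastasis in macrophages only, with genes that varied independently. That test does not bear on genes that move together or on shifts as small as the metastasis medians above.

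The genes, roles and companion lists, and the split of complex I and ATP synthase by textbook role, were chosen with earlier results of these data known. The text names, per class and comparison, up to 3 genes past the threshold in each direction or else the 1 with the smallest p, the complex II genes, Cyc1, the isoforms of other tissues, and up to 4 genes per list; other genes were named after their values were seen. The values of 1 complex I gene that this rule names are not reported here, though it stays in the counts. Alternatives were a fit of the compared groups alone, an intensity trend with robust hyperparameters, array weights, dim genes left out (11005 with a group mean over 4.51 kept), quantile normalization, equal array medians, each array left out and, chosen after seeing the data, the least correlated array of each group left out.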

Additional observations from a re-analysis of the deposited data

Results flagged for a closer look

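Dixon's test was run on 204 sets of 4 or 5 arrays (the values of 42 named genes and 9 class means in each group). In 14 sets 1 value lay far from the rest of its group, which chance gives in about 1 of 20 sets. Some of these values fell on the same array. In macrophages healthy replicate 1, Sdhc (7.40), Uqcrb (8.38) and the mean of all 85 genes (7.49, against 7.67 to 7.72 in the others) were low. In macrophages metastasis replicate 2, Atp5h (10.2) and the mean of complex III (7.79) were low. Of other macrophage arrays, Uqcrfs1 was low in healthy replicate 2 (5.98), Ndufa12 was high in metastasis replicate 1 (7.03) and Ndufa7 was high in metastasis replicate 5 (7.21). In healthy monocytes, Atp5d (6.75) and Atp5g3 (9.40) were high in replicate 2, Ndufa4 was low in replicate 1 (10.5) and Uqcrfs1 was low in replicate 4 (6.85). In metastasis monocytes, Cox8c was high in replicate 2 (3.13) and Ndufa10 was low in replicate 4 (8.75).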

How the results depend on the processing

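No median of the 85 genes changed sign under any alternative. With 1 array left out, medians were 0.11 to 0.18 for metastasis in macrophages, 0.08 to 0.11 in monocytes, -0.33 to -0.28 and -0.39 to -0.32 between the cell types in metastatic and healthy marrow, and 0.02 to 0.10 for the interaction, and calls numbered 0 to 2, 0, 38 to 48, 51 to 62 and 0. Between the cell types, 36 to 56 genes passed in metastatic and 48 to 62 in healthy marrow under the other alternatives, fewest after quantile normalization. For metastasis in macrophages 1 gene passed with an intensity trend and 1 with dim genes left out, where more genes passed in all or fewer were tested. Over all genes that comparison gave 259 calls, against 65 with its groups alone, 134 with array weights and 153 to 546 with 1 array left out; in monocytes 108, against 210, 328 and 61 to 131; for the interaction 13, against 6 with a trend, 21 with array weights and 4 to 48. The cause was not tested.

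Among the named genes, checked in the comparisons that name them, the signs that turned were of values that had not passed. With array weights metastasis gave -0.017 for Sdhd in macrophages and -0.027 for Cox6a2 in monocytes, and the interaction 0.031 for Sdhb; with quantile normalization Cox6a2 stood at -0.0015 in monocytes and the interaction of Sdhb at 0.0048; with equal array medians Sdhd stood at -0.0039 in macrophages and the interaction of Sdha at -0.0066. With the least correlated arrays left out, metastasis gave -0.016 for Sdha, -0.049 for Sdhd and 0.013 for Cox8b in macrophages and -0.059 for Cox6a2 in monocytes, the interaction gave -0.027 for Sdha, 0.079 for Sdhb and 0.015 for Sdhc, and Cox8b stood at 0.0013 between the cell types in metastatic marrow. With 1 array left out, ranges that crossed 0 were, for metastasis in macrophages, -0.020 to 0.11 (Sdha), -0.030 to 0.33 (Sdhc), -0.062 to 0.070 (Sdhd) and -0.032 to 0.091 (Cyc1). In monocytes they were -0.013 to 0.056 (Sdha), -0.087 to 0.079 (Cox6a2), -0.036 to 0.097 (Cox7a1) and -0.0037 to 0.074 (Cox7b2). For the interaction they were -0.038 to 0.088 (Sdha), -0.049 to 0.032 (Sdhb), -0.18 to 0.18 (Sdhc), -0.089 to 0.033 (Cyc1) and -0.032 to 0.19 (Cox8b). Between the cell types they were -0.051 to 0.027 for Cox7b2 in metastatic and -0.11 to 0.044 for Ndufa4l2 in healthy marrow. No paired analysis was possible because the labels give no replicate numbers that groups share. Dim genes such as Cox7b2 lie near background and have no order.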
